A study of Caenorhabditis elegans with 2 samples.

Results

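The Rab, Arf and Arl genes of Caenorhabditis elegans encode small GTPases that mark membranes and direct vesicle traffic. Protein-coding genes of the Ensembl annotation were taken as members when their name was rab-, arf- or arl- followed by a digit. This gave 29 of 19973 genes, made up of 20 rab, 3 arf and 6 arl genes. The rule used the name and no measured value, although the families were picked for description with earlier results of these data known. Each gene is asked the same question, which is whether LET-607 was found at its promoter.

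Small GTPases of these families cycle between a GDP-bound and a GTP-bound form. Exchange factors load GTP and place the GTPase on a membrane, GTPase-activating proteins return it to the GDP form, and effectors bind the GTP form to tether, move or bud vesicles. Each member serves its own membrane, from the endoplasmic reticulum (ER) and the Golgi to recycling endosomes, late endosomes and the cilium. LET-607 is a transcription factor with a basic leucine zipper. It belongs with the CREB3 proteins, which in mammals act on genes of the secretory pathway.

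The data are chromatin immunoprecipitation and sequencing (ChIP-seq) of LET-607 from 2 biological replicates, which form 1 group. Strain YL651 carried the let-607 allele tm1423, the unc-119 allele ed3 and the integrated array vrIs121, which holds a LET-607 fosmid and an unc-119 marker. LET-607 had a GFP-FLAG tag at its C-terminus and was precipitated through GFP. The animals were young adults of both sexes at 49.5 hours, synchronised as starved first-stage larvae, and whole animals were used. All tissues were thus mixed, both replicates shared the alleles and the transgene, and no sample without the tag was analysed here.

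Each deposited list gives regions with a summit and a signal value, which is the authors' peak caller's own score per region. The list of candidates called on both replicates together (the pooled list) held 30000 regions, and the list thresholded on reproducibility between replicates held 1488, all of them the strongest of the pooled list. Replicate 1 had 30000 candidates with a median signal of 25.4 and replicate 2 had 26493 with a median of 27.6. The promoter window ran from 1000 bp upstream of an annotated start to 200 bp downstream, and a gene with a thresholded summit in it was called bound. The lowest thresholded signal was 111. The lists hold no read counts, so depth is unknown, and with 1 group no test between conditions exists.

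The summit sequences of 4 of the 5 bound members are shown because they let the DNA around each summit be read beside its value. That of rab-11.1 is not shown, because sequence of its chromosome is not printed here, and its motif matches are given with the counts. Each spans the summit and 50 bp on each side of it on the plus strand of the RefSeq WBcel235 assembly. Capitals mark a match to a searched motif on either strand. The motifs searched were ACGT, the core of many basic leucine zipper sites, then CACGTG, which holds that core, then TGACG and the longer TGACGTGG and the palindrome TGACGTCA, both of which hold it too. AGACGCAG was searched as well, and so was TGATAA. The positions are chrV:1264462-1264562 for rab-1, chrIII:5715491-5715591 for arf-1, chrIV:7982199-7982299 for arf-5 and chrII:11967665-11967765 for rab-7.
rab-1: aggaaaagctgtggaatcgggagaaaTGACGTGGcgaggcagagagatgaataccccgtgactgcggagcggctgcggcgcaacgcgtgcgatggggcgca
arf-1: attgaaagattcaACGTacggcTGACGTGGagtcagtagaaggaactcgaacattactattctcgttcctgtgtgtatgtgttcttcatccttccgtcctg
arf-5: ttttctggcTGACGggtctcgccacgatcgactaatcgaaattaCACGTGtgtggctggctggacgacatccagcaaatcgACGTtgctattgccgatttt
rab-7: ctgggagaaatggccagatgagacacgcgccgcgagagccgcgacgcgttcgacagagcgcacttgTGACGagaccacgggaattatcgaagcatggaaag

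The windows of rab-1 and arf-1 held TGACGTGG on the plus strand, centred 21 and 25 bp from the summit. The arf-1 match, at chrIII:5715513-5715520, lies outside its called region, which starts at 5715528, and so does the other marked arf-1 match. The window of arf-5 had CACGTG centred 4 bp from its summit and TGACG farther out. That of rab-7 held TGACG 18 bp from the summit and no ACGT. The sequences thus differ in whether they carry the core and in which form.

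Of the 18 members that had any pooled region in the window, 5 were bound (27.8%). Among all 7766 genes with such a region, 958 were bound, which is 12.3%. The other 13 members had a region below the threshold, and 11 of the 29 had none in the window. Over all annotated genes, with or without a region, 17.2% of the members and 4.80% of protein-coding genes were bound. The bound members were rab-11.1, rab-1, arf-5, arf-1 and rab-7, which is 3 of 11 rab genes and 2 of 3 arf genes with a region. None of the 6 arl genes was bound, of which 4 had a pooled region. With 12.3% of the background bound, so few arl genes cannot show an absence by family.

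**Figure D1:**
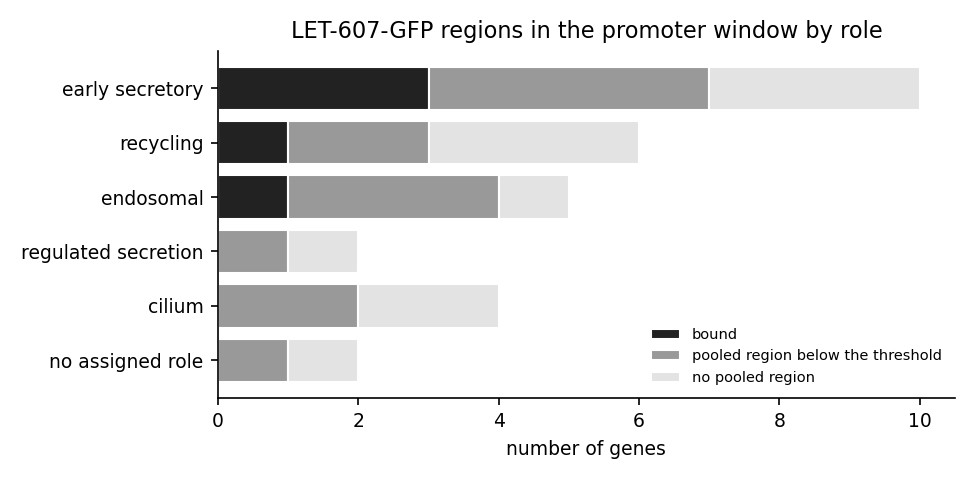
Number of Rab, Arf and Arl genes by role (bars, 29 genes), split into bound genes, genes with a pooled region below the threshold and genes with no pooled region in the promoter window. Early secretory genes hold 3 of the 5 bound members and are the role with the most genes with a region (7 of the 18). Of the regulated secretion and cilium genes, only 1 and 2 had a pooled region and none was bound, where 12.3% of the background was bound.

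The early secretory members act at the ER, at the Golgi and between them. Of the 10 genes, 7 had a pooled region and 3 were bound (42.9%), against 12.3% of the background. rab-1 (WBGene00004266), whose product tethers ER-derived vesicles to the Golgi, had 117 as its signal in the first replicate's list, 140.3 in replicate 2, at ranks 297 and 295, and 251 in the pooled list. Its rank was nearly the same in both replicates. The region, at chrV:1264484-1264590, had its summit 523 bp upstream of the rab-1 start in intergenic sequence, over the non-coding RNA gene C39F7.7. The start of the neighbouring gene C39F7.5 was closer, at 261 bp.

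The arf genes bound here encode Arf GTPases, which recruit the COPI coat to Golgi membranes. arf-1 (WBGene00000182) had 84.1 in replicate 1 and 126 in replicate 2, at ranks 617 and 372, and 195 in the pooled list. Its region, at chrIII:5715528-5715633, lay in an intron of the longer transcript, with the summit 574 bp upstream of the inner of 2 annotated starts. A second thresholded region with a signal of 132, at chrIII:5715554-5715957, overlapped the first and had its summit 359 bp upstream of the same start. arf-1 was thus the only bound member with more than 1 thresholded summit in the window, though the 2 regions are not separate stretches. No other protein-coding gene had either summit in its window.

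arf-5 (WBGene00000183) had 125 in replicate 1 and 72.7 in replicate 2, at ranks 263 and 1081, and 200.4 in the pooled list. Its 2 ranks lay farther apart than those of any other bound member. The region, at chrIV:7982047-7982450, had its summit in intergenic sequence over the non-coding RNA gene F57H12.10, 277 bp upstream of the start, the shortest distance among the bound members. The window also held pooled regions of 86.7 and 73.6, both below the threshold. arf-5 was, with arf-1, a bound member that shared its region with no other gene.

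Early secretory genes that were not bound lay well below these. rab-18 (WBGene00004277), whose product acts at the ER and on lipid droplets, was the strongest unbound member, with a pooled signal of 97.1 at rank 1988, 46.9 in replicate 1 and 50.1 in replicate 2. Its summit lay 9 bp downstream of the start, in the 5' UTR. rab-6.1, arl-5 and rab-30, which encode Golgi GTPases, had 47.5, 39.0 and 38.9, each with a region in the window in 1 replicate only. rab-6.2, arl-1 and rab-33 had no pooled region there, so early secretory members ran from rank 287 to none.

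Recycling members return receptors and membrane to the cell surface. Of 6 genes, 3 had a pooled region and 1 was bound, against 12.3% of the background. The bound gene was rab-11.1 (WBGene00004274), whose product marks recycling endosomes. It had 187 in replicate 1 and 253 in replicate 2, at rank 120 in both, and 446 in the pooled list, at rank 112. This was the highest signal of all members, and 98.5% of genes with a region had a lower one. The summit was 628 bp upstream of rab-11.1 in intergenic sequence, over the non-coding RNA genes F53G12.15 and F53G12.16. It was 353 bp upstream of rpl-7, a ribosomal protein gene that is closer to it.

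The other recycling genes were far below rab-11.1. rab-8, which acts in transport to the plasma membrane, had a pooled signal of 64.1, with 27.3 in replicate 1 and 34.2 in replicate 2. arf-6, a GTPase of the plasma membrane and endosomes, had 35.1 in the pooled list and a region in replicate 2 only. The paralogue rab-11.2 had no region in the window in any list, nor did rab-10, and rab-35 had a region of 22.8 in replicate 2 alone. rab-10 had a thresholded summit of 118 (55.7 in replicate 1 and 66.6 in replicate 2) 1143 bp upstream of its start, beyond the window.

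Endosomal members act on early and late endosomes and lysosomes. Of 5 genes, 4 had a pooled region and 1 was bound, against 12.3% of the background. rab-7 (WBGene00004271), the GTPase of late endosomes, had 91.5 in replicate 1 and 73.4 in replicate 2, at ranks 505 and 1062, and 168 in the pooled list, the lowest of the bound members. The region, at chrII:11967513-11967916, was intergenic, with its summit 784 bp upstream of rab-7, 922 bp upstream of mex-1 and 171 bp upstream of W03C9.5. A pooled region of 105 stood 59 bp downstream of the rab-7 start, just below the threshold.

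rab-14 (WBGene00004276), which acts in phagosome maturation in worms, had a pooled signal of 85.2 in the window, with 42.2 in replicate 1 and 40.9 in replicate 2. A stronger region of 211, at rank 421, lay at chrX:15607451-15607854 with its summit 1018 bp upstream of the start. It missed the window by 18 bp and counted for nipi-3, which encodes a Tribbles-type pseudokinase. It had 92.0 in replicate 1 and 126 in replicate 2, values within the range of the bound members. arl-8, a lysosomal GTPase, had 64.6, and rab-21 had no pooled region in the window. rab-5, of early endosomes, stood at rank 29310 while rab-7 stood at 658.

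The remaining members had no bound gene. Only 1 regulated secretion gene, 2 cilium genes and 1 unassigned gene had a pooled region. With 12.3% of the background bound, so few genes cannot show an absence by role. rab-3, the synaptic vesicle GTPase, had 40.7 in the pooled list and rab-37 had no region. Among the cilium genes, arl-13 had 74.3 and arl-3 had 40.1, and arl-6 and rab-28 had no region. rab-19, to which no role was assigned, had 51.8, and rab-39 had none.

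**Figure D2:**
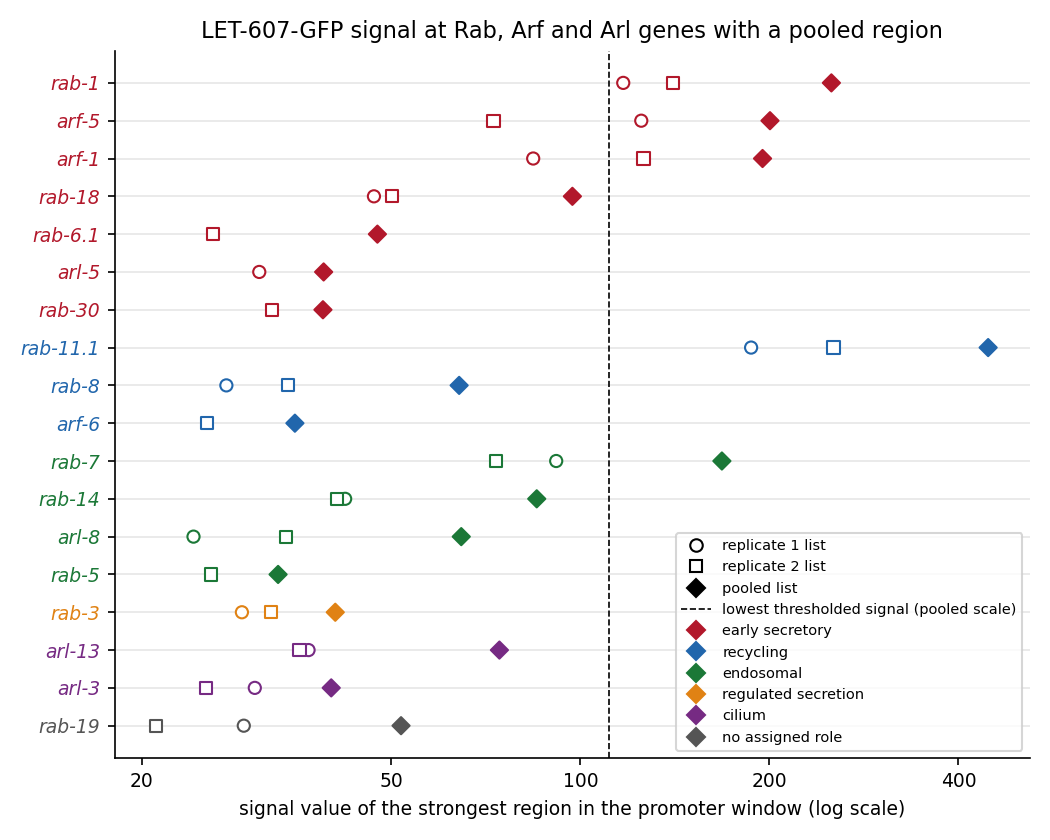
Signal of the strongest region in the promoter window of the 18 members with a pooled region (log axis), in the lists of replicate 1 (open circles), replicate 2 (open squares) and both together (diamonds), coloured by role; the dashed line is the lowest thresholded signal, 111, on the pooled scale. The 5 bound members lie at 168 to 446 in the pooled list, and the next is rab-18 at 97.1.

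Early secretory, recycling and endosomal members were bound at 3 of 7, 1 of 3 and 1 of 4, against 12.3% of the background. The median pooled signal was 97.1, 64.1 and 74.9, at median ranks 1988, 5604 and 4093, against 52.0 and rank 10372 for all genes with a region. Bound signals were 195 to 251 for the early secretory genes, 446 for rab-11.1 and 168 for rab-7. The highest and the lowest bound signals were thus both outside the early secretory genes. Roles were assigned by hand, and rab-18, rab-14 and arl-8 could be placed otherwise, while the early secretory median is the value of rab-18 itself. No test was made between the roles, since genes are not replicates.

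The 5 bound members together had a median signal of 200.4, against 174 over all 958 bound genes. All 18 with a pooled region had 64.4, against 52.0. The members with a region therefore spread over the whole background, from rab-5, which exceeded 1.52% of those genes, to rab-11.1.

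**Figure D3:**
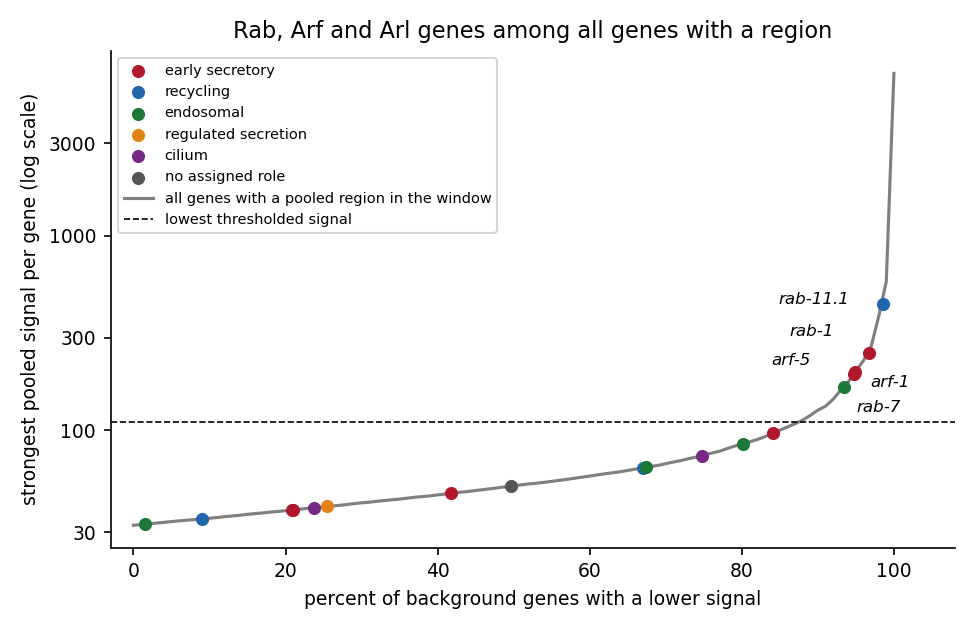
Strongest pooled signal per gene (log axis) against the percent of the 7766 genes with a region that had a lower signal; the line is all of these genes and the points are the 18 members, coloured by role. The bound members lie between 93.4% for rab-7 and 98.5% for rab-11.1, and the rest are spread below the dashed threshold.

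Both replicates held every bound member. All 5 were among the 1488 strongest regions of replicate 1 taken alone and of replicate 2 taken alone, where 12.1% and 12.4% of genes with a region were called. The threshold was set with the same replicates, which favours this by construction. rab-11.1 and rab-1 had nearly the same rank in both lists, arf-1 ranked higher in replicate 2, and arf-5 and rab-7 ranked higher in replicate 1.

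Most bound members were called on summits over 500 bp upstream of an annotated start. The median distance to the start was 574 bp, with a range from 277 to 784 bp, against a median of 268 bp over all bound genes. Summits over 500 bp upstream were found at 4 of the 5 members and at 24.1% of all bound genes. The arf-1 summit, at 574 bp, is among these 4 and sets the median. It is upstream of the inner start only and lies in an intron of arf-1. The second thresholded summit of arf-1 was at 359 bp. Regions shared with another gene's window made up 3 of 5, against 40.6% of all bound genes. When a summit counted only for the nearest start, arf-1 and arf-5 were left, which is 2 of 18, against 9.82% of the background. rab-1, rab-11.1 and rab-7 were lost there, since C39F7.5, rpl-7 and W03C9.5 start closer to their summits. Which of the genes at a shared region responds to LET-607 was not tested.

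A wider window brought in the neighbours just outside it. From 2000 bp upstream to 500 bp downstream, 7 of 22 members were bound, against 12.1% of the genes with a region there. The added genes were rab-14 and rab-10. The early secretory genes then had 3 of 8 bound, and the recycling and endosomal genes each had 2 of 4, so the order of the shares by role turned round. Any overlap of region and window gave 7 of 20 members, the same 7 genes, against 11.9% of the genes with a region there. In the narrower window, from 500 bp upstream to 100 bp downstream, arf-1 and arf-5 were bound, 2 of 9 members, against 13.8%.

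**Figure D4:**
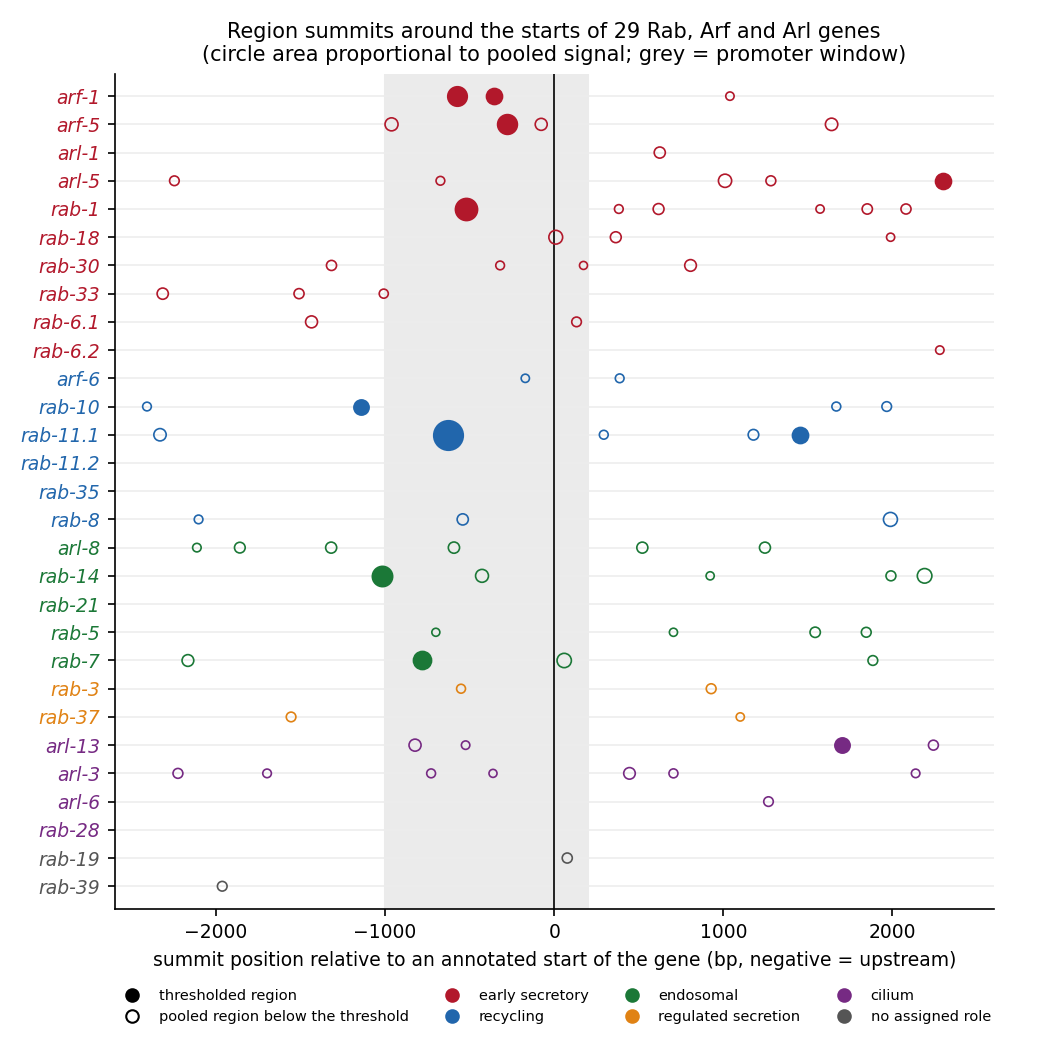
Summits of pooled regions around the annotated starts of all 29 members, in bp along the gene (negative is upstream), with the start whose window holds the summit, or else the nearest, at 0. Circle area is proportional to pooled signal, filled circles are thresholded regions, colours give the role and grey marks the promoter window; the filled circles of rab-14 and rab-10 lie just left of the window.

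The letters around the bound summits were set against all regions. TGACGTGG was in the summit windows of 2 of 5 bound members, rab-1 and arf-1, in 1.88% of all 1488 thresholded windows (28, these 2 included) and in 0.558% of the 28512 pooled windows below the threshold. None of the 13 members below the threshold had it. TGACG was in 4 of 5 (rab-11.1 was the exception), against 21.8% of thresholded windows, and in 3 of the 13. ACGT was in 4 of 5 (rab-7 was the exception), against 34.1%, and in 4 of the 13. CACGTG was in arf-5 only, against 7.80%, and in arl-13 among the 13.

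The remaining motifs were not found at bound members. TGACGTCA was in 0.739% of thresholded windows, AGACGCAG in 5.58% and TGATAA in 15.5%, and none of the 18 member windows held any of them. Over whole promoter windows taken from the outermost start, TGACGTGG was in those of rab-1 and arf-5 among the 29 members and in 3.55% of all 19973. The arf-1 match lies beyond its outermost start and is not counted there. CACGTG was in 7 of the 29 and in 18.4% of all. A match describes the sequence and does not show what bound it.

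Other genes that work with these GTPases were taken from a list of 73 names, of which 68 were annotated. Of the 43 with a pooled region, 12 were bound (27.9%), against 12.3% of the background. Their median signal was 151 when bound and 70.3 over all with a region. With the nearest start alone 10 were left, against 9.82% of the background.

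GTPases with other names were led by sar-1, which encodes the GTPase that starts the COPII coat at the ER. It had 523 in replicate 1 and 548 in replicate 2, at ranks 27 and 36, and 1071 in the pooled list, above every Rab, Arf and Arl member. Its summit lay 332 bp upstream of its start, and its window, shown for comparison with those of the members, had TGACGT, whose TGACG was centred 3 bp from the summit, at chrIV:4513601-4513701.
sar-1: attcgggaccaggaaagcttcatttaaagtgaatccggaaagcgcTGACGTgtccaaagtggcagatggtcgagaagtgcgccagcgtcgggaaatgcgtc
unc-108, the RAB2 gene, had 91.5 and glo-1, a GTPase of gut granules, had 72.8, both below the threshold. aex-6 (RAB27) and evl-20 (ARL2) had no pooled region.

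GTPase-activating proteins held most of the bound genes of the list, 7 of the 16 with a region, against 12.3% of the background. They were also the class with the most genes with a region. tbc-1, which encodes a protein with the TBC domain that acts on Rab GTPases, had 171 in replicate 1 and 239 in replicate 2, and 408 in the pooled list, close to rab-11.1. cnt-2, which encodes an Arf GTPase-activating protein, had 111 in replicate 1 and 173 in replicate 2, and 285 in the pooled list. The TBC genes tbc-13 and tbc-3 had 232 and 228 in the pooled list, rbg-1, whose product is related to the catalytic subunit of RAB3GAP, had 156, and tbc-6 and tbc-11 had 119.8 and 117. The regions of tbc-1, rbg-1 and tbc-11 were shared with flwr-1, plp-2 and pifk-1, in that order. Of the 7 bound genes, tbc-11 alone was lost with the nearest start.

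Exchange factors had 3 bound genes of 13 with a region, against 12.3% of the background. gbf-1, which encodes the exchange factor of Arf at the Golgi, had 147 in the pooled list, with its summit 998 bp upstream at the edge of the window. It shared this region with immp-1 and was lost with the nearest start alone. Its region had 69.3 in replicate 1 and 75.4 in replicate 2. rme-4, an exchange factor of RAB-35, had 146, and aex-3, an exchange factor of RAB-3 and RAB-27, had 113, close to the threshold. The aex-3 region had 51.5 in replicate 1 and 52.1 in replicate 2, where its summit fell outside the window. Of the GTPases of these exchange factors, rab-35 had no pooled region and rab-3 was below the threshold, while the Arf genes arf-1 and arf-5 were bound. Most genes with a region are unbound, so an unbound GTPase is the usual case. The TRAPP subunit gene trpp-12, part of the exchange factor of Rab1, had 110.3 in the pooled list and was just below.

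Among effectors, rme-1, which encodes an EHD ATPase of recycling endosomes, was bound at 116. This was 1 of 9 with a region, close to the 12.3% of the background. The genes for prenylation and extraction had none of 2, with gdi-1 at 47.8 and M57.2 at 49.5. With the threshold raised to the thresholded list's median signal of 158, 5 of the 12 were left, namely sar-1, tbc-1, cnt-2, tbc-13 and tbc-3, which is 5 of 43 with a region. All 5 of the 18 Rab, Arf and Arl members stayed bound, and 7.19% of the background was bound at that threshold.

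**Figure D5:**
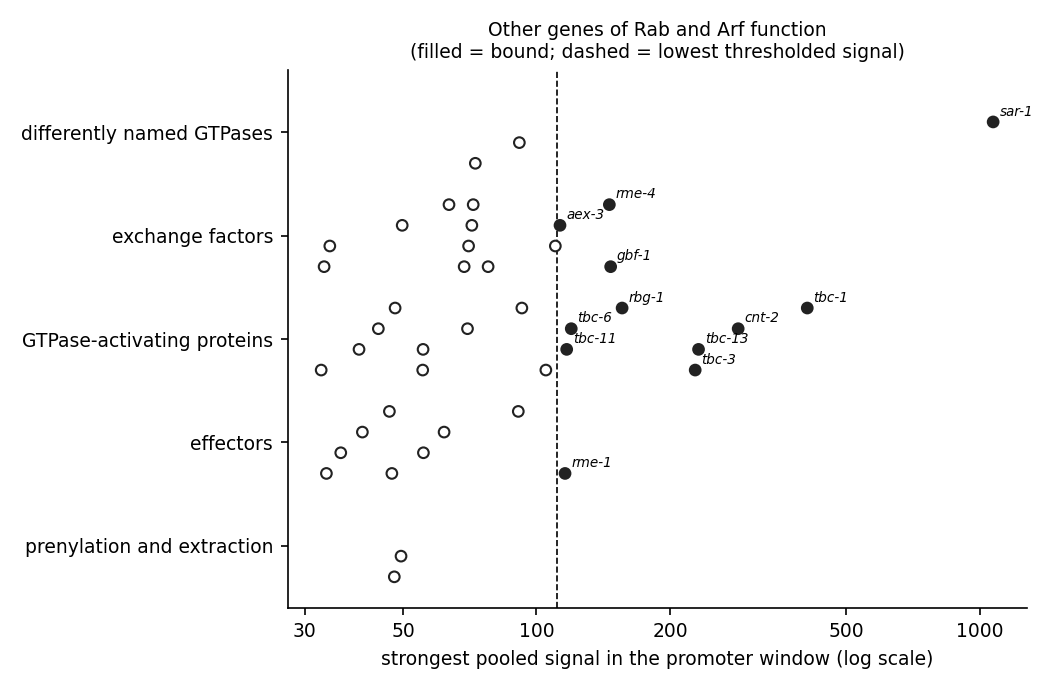
Strongest pooled signal in the promoter window (log axis) of the 43 other genes of Rab and Arf function with a pooled region, by class; filled points are bound genes, named, and the dashed line is the lowest thresholded signal. sar-1 stands apart at 1071. Of the 12 bound genes 7 are GTPase-activating proteins, the class with the most genes with a region (16 of the 43). Over all genes with a region 12.3% were bound.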

How the data were processed

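Per the text deposited with the files, the authors called candidate regions from each replicate's alignment and from both together, each with a control alignment on ce11, and derived the thresholded list from them by the irreproducible discovery rate. For caller and aligner, names and versions were not given in the sources used. The authors' deposited signal value has no stated formula, so it was ranked within lists, and replicates were compared by those ranks. The authors' deposited −log10 q-value reaches a ceiling of 3.18 shared by 766 regions of the pooled list and was not used.

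Positions are 1-based on ce11. Starts of protein-coding transcripts came from Ensembl release 115 for WBcel235, and sequence from the RefSeq FASTA, in which 99.9% of annotated start codons read ATG. An annotated start may be a trans-splice site, and genes of an operon were handled like any other. Replicate values are those of the strongest region with its summit in the window. For gbf-1 and aex-3 the region over the pooled summit was used. For summits outside the window, as at rab-10, rab-14 and arl-13, the region over the thresholded summit was used. Assignment was tested on simulated data.

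The members and lists were chosen with earlier results of these data known. Role lists held 8 names that are not annotated and the list of other genes held 5; these were left out. Named are all bound members and listed genes, the 5 strongest unbound members, genes sharing a region and members with no region; further members were named to account for all. Python 3.11.15, numpy 2.4.6, pandas 2.3.3 and matplotlib 3.10.9 were used.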

Additional observations from a re-analysis of the deposited data

How the results depend on the processing

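When either replicate was left out and the other's 1488 strongest regions were used, the same 5 members were bound, and likewise with the thresholded regions at or above their median signal of 158. With the 500 to 100 bp window 2 of 9 members were bound, arf-1 and arf-5, against 13.8% of the genes with a region there, and likewise 2 of 18 with the nearest start alone; recycling and endosomal members then had 0 each under both settings. With the 2000 to 500 bp window, and with any overlap of region and window, recycling members had 2 (rab-10 added) and endosomal members 2 (rab-14 added). The list of other genes had 5 bound at that raised threshold. With 100 bp on each side of the summit CACGTG was at 2 bound members (rab-7 added). These settings move the window, the threshold or the start for which a summit counts, and no cause of the shifts was tested. Counting the regulated secretion genes with the recycling genes changed no count. Of the alternatives for counts, medians and motifs, 42 stayed within 1.5 times the value reported and 12 did not. Both numbers include the alternatives for the list of other genes. Some of these 42 could not have moved. Setting the counts against all protein-coding genes changes only the number they are divided by. Regrouping the regulated secretion genes leaves the early secretory and endosomal counts untouched by construction. The tally is therefore no measure of robustness. For the list of other genes, for which the alternatives were added after the data were seen, each replicate alone gave 11, with changed calls. aex-3 was lost and unc-108 gained in both. tbc-11 was lost with replicate 2 alone, and gbf-1 and rme-1 were lost and glo-4 gained with replicate 1 alone. No paired analysis was possible because there is only 1 group of samples. With 5 bound members, 1 gene moves a share by several points, and the unknown depth limits what a region below the threshold can show.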

Other observations

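Several members had a thresholded region nearby that the promoter window did not count. Within 5000 bp of the gene, 12 of 29 members had a thresholded summit (41.4%), against 17.1% of all protein-coding genes, and for 7 of them every such summit lay outside the window. That of arl-13, a cilium gene, was in its own coding exon, with a signal of 119, and had 66.4 in replicate 1 and 47.9 in replicate 2. A second region of rab-11.1 stood 76 bp past its 3' end, in the window of Y48G1C.8, with a signal of 133. The region of 132 upstream of rab-33 was in the 5' UTR of sly-1, which encodes a Sec1-type partner of ER-Golgi SNARE proteins.

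Near arl-8 the region lay in an intron of coq-3, with a signal of 216. Around arl-5 there were 3 regions of 149, 131 and 125, at panl-3, at lin-52 with ZK632.9, and at ZK632.9. Which gene such regions serve was not tested.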
